A study of Homo sapiens with 8 samples.

Results

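The genes described here are 10 transcription regulators of the basic helix-loop-helix (bHLH) class that can pair with the muscle factor MYOD1 or counter it. They were chosen by symbol from a list written for the myogenic network, and all 10 were found among the 60234 genes of the deposited table, each on 1 identifier. They fall into 3 E proteins (TCF3, TCF4, TCF12), 3 ID proteins (ID1, ID2, ID3) and 4 other antagonists of MYOD1 (TWIST1, MSC, BHLHE40, BHLHE41). The samples were 8 libraries of Rh41, an established cell line of alveolar rhabdomyosarcoma that carries the PAX3-FOXO1 fusion. Of these, 4 were labelled control and 4 were labelled siG9a, a knockdown of the histone methyltransferase G9a, the product of EHMT2. The series title writes shG9a where the sample labels write siG9a, and neither the type of control nor the time after knockdown is given in the sources used here. All libraries come from 1 cell line. The design text calls the replicates biological without saying how they were separated, so p-values measure the spread between these libraries of 1 line.

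MYOD1 activates muscle genes as a dimer with an E protein, and the pair binds the E-box, a short DNA site with the letters CANNTG. ID proteins keep the helix-loop-helix that makes the dimer but lack the basic region that contacts DNA, so an E protein held by an ID protein cannot bind. TWIST1 and MSC (musculin) also pair with E proteins and occupy or block sites of MYOD1, and BHLHE40 and BHLHE41 are repressors of the circadian and hypoxia responses that can counter MYOD1. Rhabdomyosarcoma cells are known for expressing MYOD1 without completing muscle differentiation, and competition for E proteins is a known part of that state.

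The promoters of the ID genes are shown because ID1 and ID3 were called higher in siG9a in each fit described below that held the replicate number, and ID2 was not. These are the 250 bases before the RefSeq start in GRCh38.p14, 5′ to 3′ on the gene's strand, with 4 motifs on either strand in capitals: the E-box (CANNTG), the CCAAT box (CCAAT), the TATA box (TATAAA) and the GC box (GGGCGG). ID1 lies at chr20:31605039-31605288 (plus strand), ID2 at chr2:8681806-8682055 (plus strand) and ID3 at chr1:23559502-23559751 (minus strand).
ID1: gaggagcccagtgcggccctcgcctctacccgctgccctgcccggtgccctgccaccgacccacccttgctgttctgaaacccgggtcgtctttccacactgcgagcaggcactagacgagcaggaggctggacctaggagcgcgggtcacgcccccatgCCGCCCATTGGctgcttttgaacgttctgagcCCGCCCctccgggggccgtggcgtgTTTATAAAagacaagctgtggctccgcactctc
ID2: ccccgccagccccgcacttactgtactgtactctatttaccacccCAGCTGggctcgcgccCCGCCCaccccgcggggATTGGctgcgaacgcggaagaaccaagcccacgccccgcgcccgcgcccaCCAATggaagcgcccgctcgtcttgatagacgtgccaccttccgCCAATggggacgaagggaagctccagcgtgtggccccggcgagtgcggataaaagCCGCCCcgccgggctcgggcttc
ID3: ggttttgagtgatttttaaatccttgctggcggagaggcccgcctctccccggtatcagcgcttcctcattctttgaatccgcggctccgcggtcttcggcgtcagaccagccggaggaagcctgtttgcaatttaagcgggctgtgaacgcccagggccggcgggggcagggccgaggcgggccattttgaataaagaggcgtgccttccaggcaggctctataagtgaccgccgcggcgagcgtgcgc

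The E-box stood in the ID2 window only, as CAGCTG 205 bases before the start, and 61.8% of 35114 promoter windows of this length hold at least 1 E-box. The ID1 window held 1 CCAAT box, 2 GC boxes and a TATA box read on both strands, which overlap each other 31 to 33 bases before the start. The ID2 window held 3 CCAAT boxes and 2 GC boxes. The CCAAT box was found in 32.01% of all windows, the TATA box in 10.7% and the GC box in 42.6%. None of the 4 motifs was found as exact letters in the ID3 window, so ID1 and ID3 shared no exact match in the 250 bases shown. Near matches, such as tataag in the ID3 window, were not counted. These matches describe letters in a window and say nothing of factors bound there.

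The libraries held 1458825 to 1938665 reads assigned to genes, so that 1 read equals 0.516 to 0.685 CPM (reads scaled to a common library total) and 3 reads, the floor, equal 1.55 to 2.06 CPM. EHMT2 measured 57.6, 68.1, 87.3 and 88.3 CPM in control replicates 1 to 4 and 19.6, 35.1, 33.1 and 58.5 CPM in siG9a. EHMT2 was lower in 4 of 4 pairs of equal replicate number, and the groups overlapped. Its log2 difference was −1.10, at a limma adjusted p of 0.191 with the group alone and 0.000472 with the replicate number in the model, and EHMT2-AS1 overlaps it on the opposite strand. The 8 listed markers of rhabdomyosarcoma, MYOD1 among them, summed to between 1591 and 1760 CPM in 3 control libraries and to 270 CPM in control replicate 3. In siG9a they summed to between 885 and 1287 CPM in 3 libraries and to 227 CPM in replicate 3. The 8 neural markers went the other way, from 192 to 2060 CPM in control replicates 1, 2 and 4 against 9666 CPM in replicate 3. In siG9a replicate 3 they summed to 8971 CPM, against 224 to 2962 CPM in the others, and nearly all of it was NEFM and NEFL. SOX2 reached 59.0 CPM in control replicate 3 and 34.8 CPM in siG9a replicate 3, and ELAVL3 and ELAVL4 lay at 0 to 1.21 CPM in every library. Both replicate 3 libraries thus stood apart from the other 6, and each result below is given with and without them where it matters. Of 7 epithelial markers 4 had a mean of 1 CPM or more (sums of 10.3 to 76.2 CPM in control and 25.2 to 44.5 CPM in siG9a), with EPCAM at 0.69 CPM or less. Of 5 blood markers 1 did (sums of 1.83 to 3.69 CPM and 1.72 to 6.28 CPM), with CD3E at 0.52 CPM or less. The summed stromal list of 8 genes ran from 118 to 399 CPM in control and from 52.5 to 318 CPM in siG9a, most of it COL3A1 and COL1A1, with POSTN at 0. Mitochondrial genes took 4.59% to 9.18% of reads in control and 5.21% to 13.7% in siG9a, more in siG9a in 4 of 4 pairs. What part these shifts have in the results was not tested. In bulk RNA, fewer cells of a type and less RNA per cell cannot be told apart.

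Libraries of equal replicate number shared shifts, strongly for numbers 1 and 3 and weakly for 2 and 4, so a pair of fits was read side by side. Both used limma on log2(CPM + 1) across 15092 genes averaging 1 CPM or more, a filter that 9 of the 10 members passed. The unblocked fit, with the group alone, called 0 genes (0.00%) at a Benjamini-Hochberg adjusted p under 0.05, and 1880 (12.5%) had an unadjusted p below that value. No member was among the calls, and TCF4 alone had an unadjusted p under 0.05 (0.0193). The blocked fit, which adds the replicate number, called 1717 genes (11.4%), of which 733 (4.86%) were higher in siG9a and 984 (6.52%) lower. Of the 9 members tested, 3 were called in that fit: ID1 and ID3 higher and TCF4 lower. On whole reads recovered from the CPM, blocked edgeR (11.3% of genes called) and blocked DESeq2 (6.42%) called the same 3 members. Unblocked edgeR (0.00%) and unblocked DESeq2 (1.93%) called 0 members. Without both replicate 3 libraries, the blocked limma fit (7.14% called) again gave these 3 members and the unblocked one (2.74%) gave 0. The siG9a and control values overlapped for each of the 10 members, while they were apart for 7.32% of genes tested (3.88% higher and 3.45% lower). The same direction in all 4 pairs was found for 3 of the 9 tested members, again ID1, ID3 and TCF4, and for 30.2% of genes tested.

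**Figure D1:**
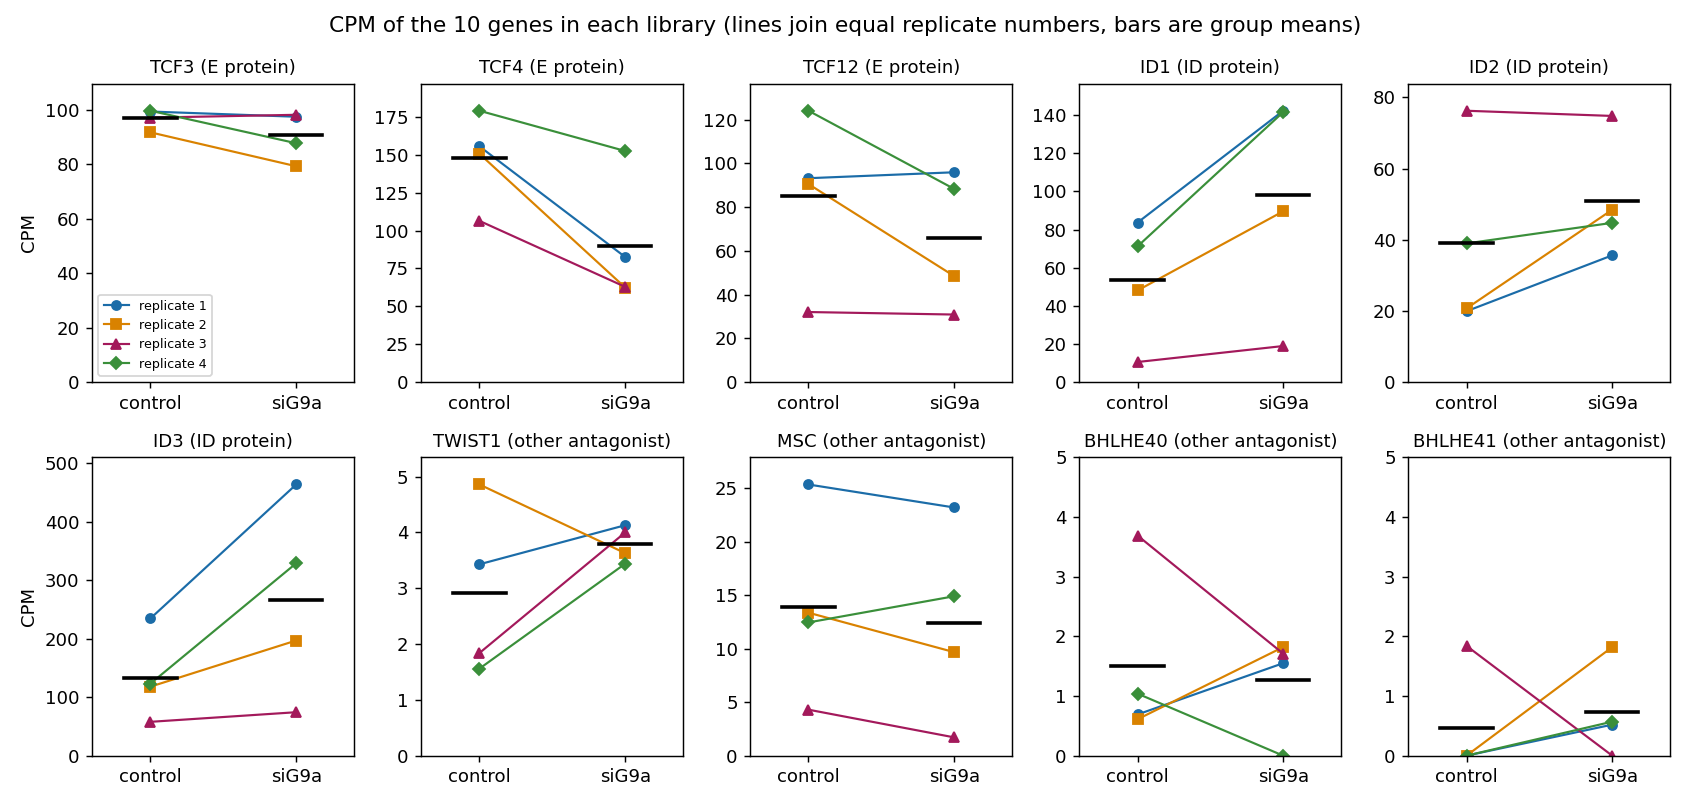
CPM of each of the 10 genes (vertical axis, from 0 in every panel) in control and siG9a libraries, with lines joining libraries of equal replicate number and bars at the group means (n = 4). ID1 and ID3 are higher and TCF4 is lower in siG9a along all 4 lines, while replicate 3 starts from low ID1, ID3, TCF12 and MSC and from high ID2.

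TCF4 was the E protein with the highest mean level in control, and it was the only E protein called in the blocked fit. This is the E protein gene of that symbol and not the Wnt factor TCF7L2, which has been called by the same name. In control replicates 1 to 4, TCF4 (ENSG00000196628) stood at 155.6, 150.7, 106.4 and 179.1 CPM, from 173 to 345 reads. In siG9a it measured 82.5, 62.3, 62.8 and 152.6 CPM, on 103 to 266 reads. The values of siG9a replicates 1, 2 and 3 lay below all control values, and siG9a replicate 4 lay within the control range, so the groups overlapped. Each siG9a library was below the control library of its number, at 53.0%, 41.4%, 59.0% and 85.2% of it, and 15.3% of all genes tested were lower in 4 of 4 pairs. Its control mean was 148.0 ± 30.4 CPM and its siG9a mean 90.1 ± 42.7 CPM (SD, n = 4). The log2 difference was −0.79, with an SE of 0.29 unblocked and 0.17 blocked, and limma's adjusted p was 0.304 unblocked and 0.00290 blocked. Without the replicate 3 pair the blocked adjusted p was 0.0221 in limma. Without the replicate 2 pair it was 0.0714 with a log2 difference of −0.63, so TCF4 was not called there. Without the replicate 1 pair it was 0.0227, and without the replicate 4 pair 0.00117. The cause was not tested. A pseudogene, RPL21P126, and TCF4-AS2 overlap exons of TCF4 on the opposite strand in GENCODE release 29, and RPL21P126 was at 1.37 CPM or less in every library.

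TCF3 held nearly the same level in all 8 libraries. TCF3 (ENSG00000071564), a broadly expressed E protein, measured 99.4, 91.8, 97.2 and 99.7 CPM in control and 97.5, 79.3, 98.2 and 87.8 CPM in siG9a. Control replicate 3 lay inside the range of the other control libraries, and siG9a replicate 3 was the highest of its group by less than 1 CPM. TCF3 differed by −0.10 in log2 (blocked SE 0.16), and limma's adjusted p was 0.879 unblocked and 0.747 blocked.

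TCF12 varied more between replicate numbers than between the groups. TCF12 (ENSG00000140262), an E protein known as a partner of MYOD1 in muscle cells, measured 93.2, 90.5, 31.98 and 124.1 CPM in control. In siG9a it measured 95.9, 48.4, 30.8 and 88.3 CPM. Both replicate 3 libraries were the lowest of their group, and the pair of replicate 2 had the largest difference, with siG9a at 53.5% of control. TCF12 differed by −0.35 in log2 (blocked SE 0.18), and limma's adjusted p was 0.805 unblocked and 0.237 blocked.

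The shares of the 3 E proteins show the difference in another way. TCF4 gave 44.5% to 45.3% of the summed E protein CPM in every control library, a spread of under 1 percentage point that included replicate 3. In siG9a it gave 29.9%, 32.8%, 32.7% and 46.4% in replicates 1 to 4. Reads of QuantSeq 3′ libraries come from transcript ends, so CPM was set side by side between genes without a correction for length. Other differences between genes in reads per transcript were not checked. TCF4 was thus the leading E protein transcript in all 4 control libraries, and in siG9a TCF3 led in replicates 1, 2 and 3 while TCF4 led in replicate 4.

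ID3 had the highest mean level of the ID transcripts and was higher in siG9a in every pair. ID3 (ENSG00000117318) measured 234.4, 117.9, 57.8 and 123.1 CPM in control replicates 1 to 4, on 94 to 342 reads. In siG9a it measured 463.2, 196.7, 74.2 and 328.6 CPM, on 130 to 898 reads. The siG9a library was 1.98, 1.67, 1.28 and 2.67 times its control library, and 14.9% of all genes tested were higher in 4 of 4 pairs. Replicate 3 was the lowest library of both groups and replicate 1 the highest, so the groups overlapped. Its control mean was 133.3 ± 73.6 CPM and its siG9a mean 265.7 ± 167.7 CPM (SD, n = 4). The log2 difference was 0.87, with an SE of 0.52 unblocked and 0.16 blocked, and limma's adjusted p was 0.530 unblocked and 0.000886 blocked. Without the replicate 3 pair it was 0.00167 in the blocked limma fit.

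ID1 was higher in siG9a by a similar ratio in each pair. ID1 (ENSG00000125968) measured 83.6, 48.0, 10.5 and 71.1 CPM in control, then 142.4, 89.6, 18.8 and 141.7 CPM in siG9a. Although the level in replicate 3 was below those of the other libraries in both groups (17 reads in control and 33 in siG9a), the ratio of siG9a to control was 1.70, 1.87, 1.80 and 1.99 in replicates 1 to 4. Its control mean was 53.3 ± 32.2 CPM and its siG9a mean 98.1 ± 58.3 CPM (SD, n = 4), and the values overlapped. The log2 difference was 0.86, with an SE of 0.68 unblocked and 0.17 blocked, and limma's adjusted p was 0.663 unblocked and 0.00185 blocked. Without the replicate 3 pair it was 0.00823 in the blocked limma fit.

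ID2 differed from ID1 and ID3 in where it was high. ID2 (ENSG00000115738) measured 19.9, 20.7, 76.3 and 38.9 CPM in control and 35.6, 48.4, 74.8 and 44.7 CPM in siG9a. Both replicate 3 libraries were the highest of their group, where ID1 and ID3 were the lowest. The ratio of siG9a to control was 1.79 and 2.34 in replicates 1 and 2, 0.981 in replicate 3 and 1.15 in replicate 4. ID2 differed by 0.54 in log2 (blocked SE 0.21), and limma's adjusted p was 0.630 unblocked and 0.102 blocked. Without the replicate 3 pair the log2 difference was 0.73, at a blocked limma adjusted p of 0.0912. ID2-AS1 overlaps exons of ID2 on the opposite strand.

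The makeup of the ID transcripts in replicate 3 differed from that of the other libraries in both groups. ID3 gave 69.4%, 63.2%, 40.0% and 52.8% of summed ID CPM across control replicates 1 to 4, against 72.2%, 58.8%, 44.2% and 63.8% after knockdown. ID2 gave 52.8% in control replicate 3 and 44.6% in siG9a replicate 3, and between 5.55% and 16.7% in the other 6 libraries.

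**Figure D2:**
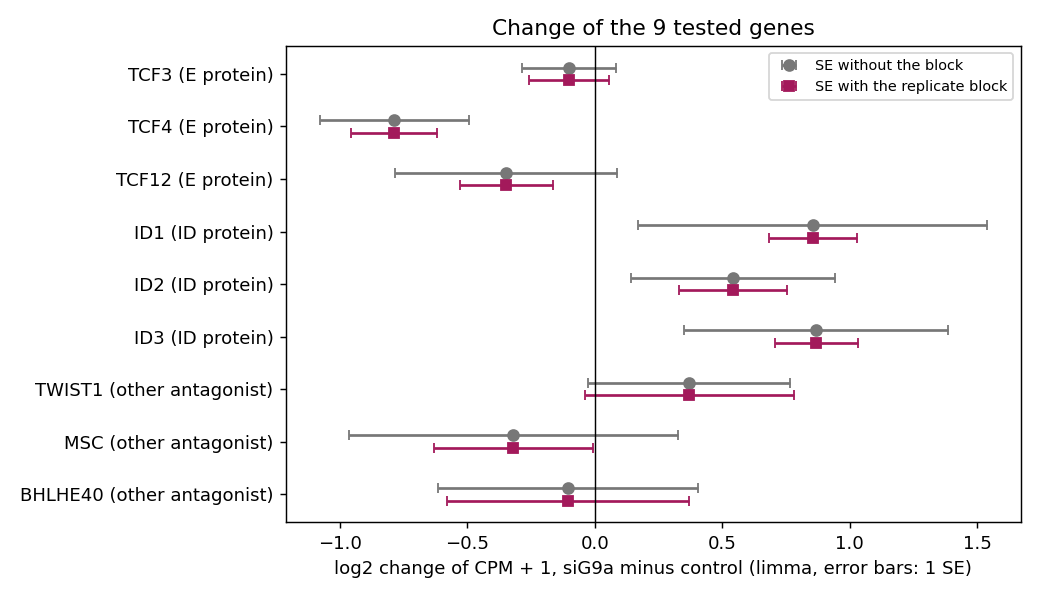
Log2 change of CPM + 1 (horizontal axis, siG9a minus control) for the 9 genes tested, with error bars of 1 SE from limma without the block (circles) and with it (squares). The estimates are the same in both fits, and the SE of ID1 is 0.68 without the block and 0.17 with it.

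The sum of the 3 E proteins set against the sum of the 3 ID proteins brings both sides of the balance together. The sums are descriptions with no test, since the genes were chosen with results known. In control replicates 1 to 4, the E proteins summed to 348, 333, 236 and 403 CPM and the ID proteins to 338, 187, 144.5 and 233 CPM. In siG9a, the E proteins summed to 276, 190.1, 192 and 329 CPM and the ID proteins to 641, 335, 168 and 515 CPM. The ratio of E to ID transcripts was 1.03, 1.79, 1.63 and 1.73 in control and 0.430, 0.568, 1.14 and 0.638 in siG9a. By CPM, the E sum was thus above the ID sum in all control libraries, narrowly in replicate 1 (348 against 338 CPM). In siG9a the E sum was below the ID sum in 3 of the 4 libraries. A ratio of 1 marks equal CPM, and whether it marks equal numbers of transcripts was not checked. The ratio in siG9a was 41.8%, 31.8%, 70.1% and 36.9% of that in the control library of the same number. The groups overlapped only between control replicate 1 and siG9a replicate 3. A scaling of a whole library cancels in this ratio. The difference of mean log2 ratios was −1.22 over all libraries, −1.45 without the replicate 3 libraries, and −0.88 when ID3 and TCF4 were both left out of the sums.

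**Figure D3:**
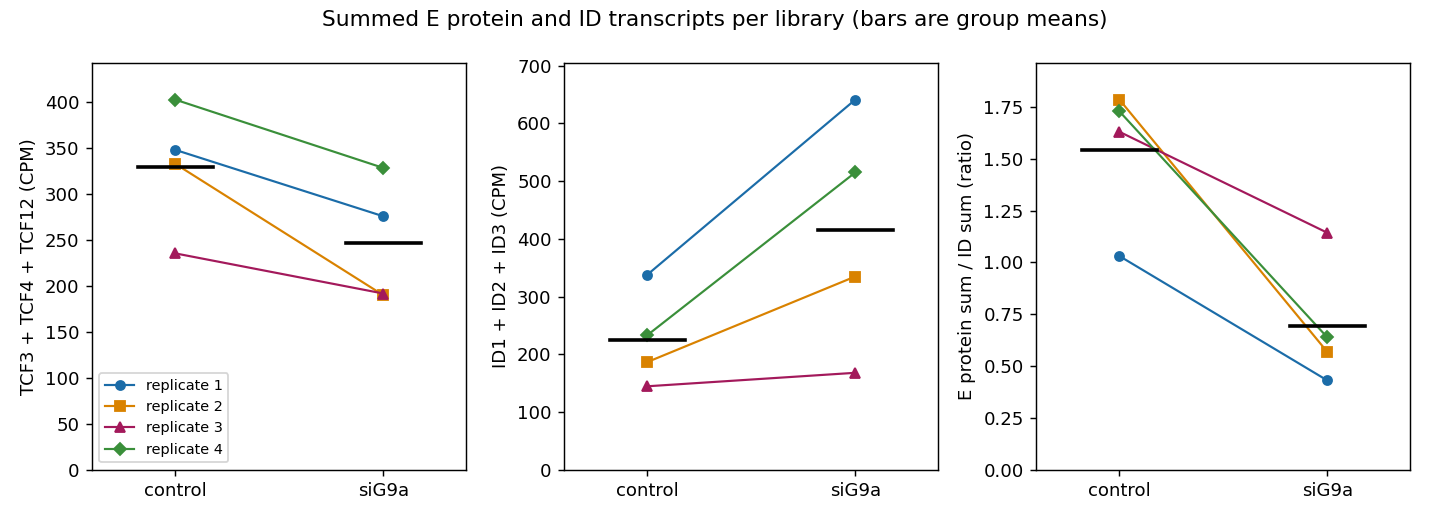
Summed CPM of TCF3, TCF4 and TCF12 (left), summed CPM of ID1, ID2 and ID3 (middle) and the ratio of the sums (right) in each library, with lines joining equal replicate numbers and bars at the group means (n = 4). The ratio is lower in siG9a along all 4 lines, from a mean of 1.54 in control to a mean of 0.695.

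The other antagonists were much lower in level, and none was called in either fit. MSC (ENSG00000178860), a repressor that competes with MYOD1 for E proteins, measured 25.4, 13.4, 4.30 and 12.5 CPM in control and 23.2, 9.68, 1.71 and 14.9 CPM in siG9a. The order of the libraries was the same in that replicate 1 was highest and replicate 3 lowest in both groups. MSC differed by −0.32 in log2 (blocked SE 0.31), and limma's adjusted p was 0.895 unblocked and 0.570 blocked. MSC-AS1 overlaps exons of MSC on the opposite strand, and the strand setting of the counting is not given in the sources used here.

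TWIST1 (ENSG00000122691), a bHLH factor that binds E proteins, measured 3.43, 4.86, 1.84 and 1.56 CPM in control and 4.13, 3.63, 4.00 and 3.44 CPM in siG9a. These values rested on 3 to 8 reads per library, so the log2 difference of 0.37 (blocked SE 0.41, blocked limma adjusted p 0.626) has an error as large as itself. BHLHE40 (ENSG00000134107) rested on 1, 1, 6 and 2 reads in control and 3, 3, 3 and 0 reads in siG9a. In siG9a replicate 4, the 0 reads allow up to 2.20 CPM by the 95% Wilson interval of the count. Only control replicate 3 was above the floor of 3 reads for BHLHE40. BHLHE41 (ENSG00000123095) was at 3 reads or fewer in every library, with a mean of 0.594 CPM, and was not tested. On the opposite strand, AC003986.2 overlaps TWIST1, BHLHE40-AS1 (0 in every library) overlaps BHLHE40, and SSPN (up to 11.9 CPM) overlaps BHLHE41. The log2 difference of BHLHE40 was −0.10 (blocked SE 0.48), at a limma adjusted p of 0.922 blocked.

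Ordered by mean level in control, the genes ran TCF4, ID3, TCF3, TCF12, ID1, ID2, MSC, TWIST1, BHLHE40 and BHLHE41, and the ranges of each neighbouring pair overlapped. In siG9a the order was ID3, ID1, TCF3, TCF4, TCF12, ID2, MSC, TWIST1, BHLHE40 and BHLHE41. There the ranges of ID2 (from 35.6 CPM) and MSC (up to 23.2 CPM) did not overlap, nor did those of TWIST1 (from 3.44 CPM) and BHLHE40 (up to 1.82 CPM).

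The factor that these genes can pair with or counter was high in most libraries. MYOD1 measured 864.4, 817.3, 95.3 and 853.6 CPM in control and 820.7, 608.3, 127.9 and 839.0 CPM in siG9a, a log2 difference of −0.03 at a blocked limma adjusted p of 0.935. It was higher in siG9a in the replicate 3 pair only. Without that pair the log2 difference was −0.18, at a blocked limma adjusted p of 0.615. MYOG, the factor of late differentiation, averaged 6.70 ± 3.67 CPM in control libraries and 4.82 ± 4.25 CPM after knockdown (SD, n = 4). MYF5 was listed at 0 in all 8 libraries, and MYF6 did not pass 1 CPM on average. In transcript CPM, MYOD1 therefore stood above the summed E proteins in 6 of the 8 libraries, all but both replicate 3 libraries. Protein levels were not measured here.

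Among 20 other partners and co-regulators of MYOD1, 17 were tested and the unblocked fit on all 8 libraries called 0. The blocked fit called 1 lower, a gene not reported here, and 0 higher. Of all genes tested, it called 6.52% lower and 4.86% higher. Without both replicate 3 libraries, the blocked and the unblocked fit each called 1 lower and 0 higher. MEF2D, a factor that acts with MYOD1 at muscle genes, measured 28.1, 12.8, 12.9 and 9.35 CPM in control and 33.5, 18.8, 16.6 and 22.9 CPM in siG9a. It was higher in 4 of 4 pairs with a log2 difference of 0.58, the groups overlapped, and it was not called (limma adjusted p 0.552 unblocked and 0.156 blocked). The median log2 difference of the 17 was −0.13, beside 0.01 for all 15092 genes tested.

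Of 20 other antagonists of MYOD1 on a list, 16 were tested and none was called higher in either fit. The unblocked fit called 0 and the blocked fit 2 lower (ZEB1 and MDFI), with HEYL as another without the replicate 3 pair. On all 8 libraries the blocked fit called 6.52% of all genes tested lower. Without both replicate 3 libraries the unblocked fit called 1 lower, ZEB1. ZEB1, a zinc finger repressor that binds E-box sites of muscle genes, averaged 203.4 ± 74.0 CPM in control libraries and 62.7 ± 29.3 CPM after knockdown (SD, n = 4), lower in 4 of 4 pairs. The log2 difference was −1.69 (blocked SE 0.20), at a limma adjusted p of 4.84e-06 blocked and 0.114 unblocked, and ZEB1-AS1 overlaps ZEB1 on the opposite strand. MDFI, an inhibitor that holds myogenic factors in the cytoplasm, measured 93.2, 77.8, 17.8 and 149.5 CPM in control and 35.6, 44.2, 12.6 and 84.3 CPM in siG9a. The log2 difference of MDFI was −0.86 (blocked SE 0.19), at a limma adjusted p of 0.00369 blocked and 0.619 unblocked. SUV39H1, a histone methyltransferase that joins MYOD1 in undifferentiated cells, was not called (log2 difference −0.70, blocked limma adjusted p 0.274). The E-box repressors SNAI1 and SNAI2 were not called either, with log2 differences of −0.48 and −0.17 on all 8 libraries. Without the replicate 3 pair these were 0.34 and −0.03, and SNAI1 was at 0 CPM in siG9a replicate 3. The median log2 change of the 16 was −0.35.

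Known targets of MYOD1 were called in 1 direction only, lower in siG9a. Of 25 such genes, 21 passed the filter. The unblocked fit called 0, and the blocked fit called 10 lower and 0 higher, with 11 not called. Of all genes tested, the blocked fit called 6.52% lower and 4.86% higher. Without both replicate 3 libraries, the unblocked and the blocked fit each called the same 10 lower. Those fits called 2.74% and 7.14% of all genes tested in either direction. The median log2 change of the 21 was −0.94, and 2 of them had a log2 change above 0. The smallest unadjusted p-values were those of MYL4 (log2 difference −3.64), TNNI1 (−2.58) and MYBPH (−3.17), which encode sarcomere proteins, and ACTC1 (−1.77) and TNNT2 (−1.75) were also among those called. LAD1 overlaps TNNT2 on the same strand, and antisense genes overlap TNNI1 and ACTC1. The cell cycle inhibitors CDKN1A and CDKN1C, which MYOD1 can induce, were not called, with log2 differences of −0.34 and −0.29. Without the replicate 3 pair these were −0.09 and 0.04. The relation of these 10 genes to TCF4, ID1 and ID3 was not tested.

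ID1, ID2 and ID3 are known direct targets of bone morphogenetic protein (BMP) signals through SMAD1 and SMAD5. Of 24 genes of that pathway 23 were tested. The unblocked fit called 0, and the blocked fit called 1 higher (BMP4) and 5 lower (BMP5, BMP7, BMPR2, SMAD1 and ATOH8). Of all genes tested, the blocked fit called 4.86% higher and 6.52% lower. Without the replicate 3 pair BMP5 was lost (blocked limma adjusted p 0.170) and ACVR2A, a receptor gene, was called lower. The unblocked fit without both replicate 3 libraries called 3 lower, BMP7, BMPR2 and ACVR2A. Among the ligands, BMP4 measured 6.85, 20.7, 6.15 and 12.5 CPM in control and 37.1, 30.9, 11.4 and 19.5 CPM in siG9a. Its log2 difference was 1.06 (blocked SE 0.30), at a limma adjusted p of 0.0206 blocked and 0.357 unblocked, while blocked DESeq2 gave an adjusted p of 0.0627. BMP7, another ligand, measured 35.0, 27.3, 34.4 and 32.2 CPM in control and 4.13, 5.45, 9.13 and 21.8 CPM in siG9a. The groups did not overlap for BMP7, as for 7.32% of all genes tested. The log2 difference of BMP7 was −1.82 (blocked SE 0.30), at a limma adjusted p of 0.000289 blocked and 0.122 unblocked.

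A receptor and a transducer were among the 5 genes of that pathway called lower in the blocked fit, while 17 of the 23 tested were not called. SMAD5, the other transducer named above, was among those 17, with a log2 difference of −0.04 (blocked limma adjusted p 0.907). BMPR2, the type II receptor, measured 91.9, 102.1, 75.6 and 123.1 CPM in control and 41.8, 48.4, 49.1 and 64.8 CPM in siG9a, without overlap. The log2 difference was −0.93 (blocked SE 0.17), at a limma adjusted p of 0.000701 blocked and 0.133 unblocked. SMAD1 was also without overlap, at 80.9, 60.2, 49.8 and 96.1 CPM in control and 44.9, 37.5, 42.3 and 37.3 CPM in siG9a. Its log2 difference was −0.77, at a limma adjusted p of 0.0104 blocked and 0.237 unblocked, and SMAD1-AS1 overlaps it on the opposite strand.

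ATOH8 was the only gene called among the listed feedback and target genes of BMP signals. It is a bHLH gene that BMP signals induce, and it was lower in siG9a in the blocked fit (log2 difference −0.78, limma adjusted p 0.00560 blocked and 0.706 unblocked). It was lower in 3 of 4 pairs and was at 59.0 and 34.8 CPM in the replicate 3 libraries, against 165.8 to 435.3 CPM in the others. SMAD6 and BAMBI, inhibitors that BMP signals induce, had log2 differences of 0.50 and 0.84 and were not called, and SMAD7 had −0.71 at a mean of 1.86 CPM or less in both groups. NOG, a secreted BMP antagonist, was not called either (log2 difference −0.25).

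**Figure D4:**
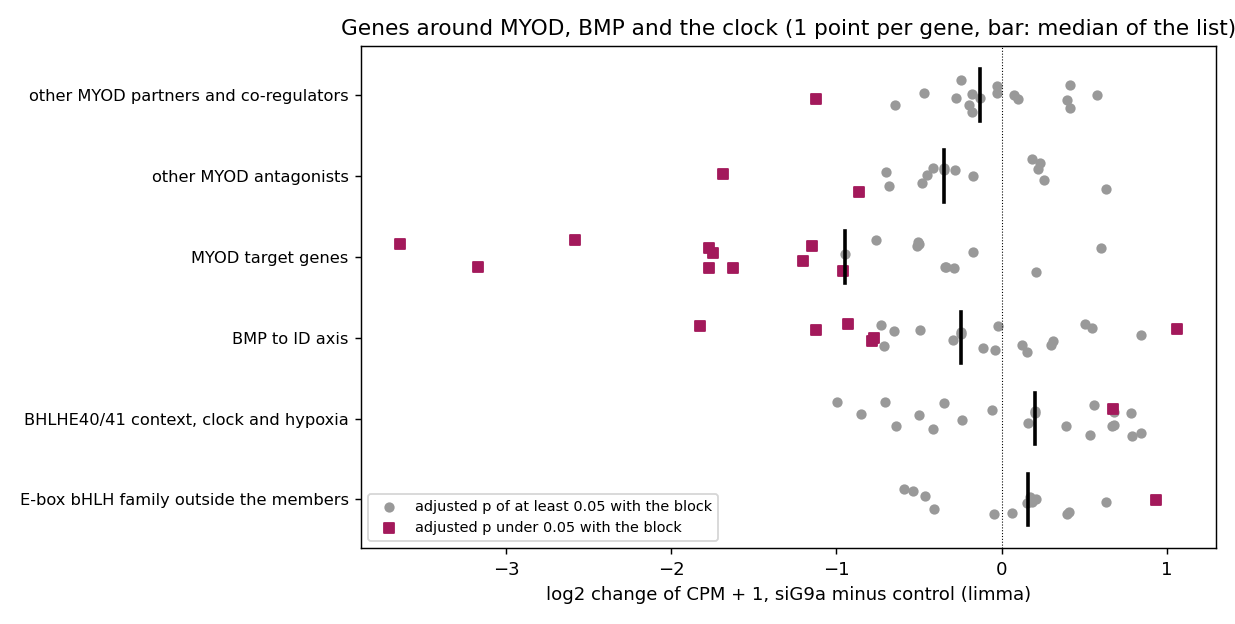
Log2 change of CPM + 1 (horizontal axis, siG9a minus control, limma) for each tested gene of 6 lists, with squares for genes at an adjusted p under 0.05 with the replicate block and a bar at the median of each list. The MYOD1 targets lie lowest, with a median of −0.94, and the BMP genes spread to both sides, from −1.82 for BMP7 to 1.06 for BMP4.

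The setting of BHLHE40 and BHLHE41 was read from 24 genes of the circadian clock and the hypoxia response, of which 23 were found and 22 tested. The unblocked fit called 0, and the blocked fit called 1 higher and 0 lower, but 0 without the replicate 3 pair. Of all genes tested, the blocked fit on 8 libraries called 4.86% higher and 6.52% lower. ARNT, the partner of hypoxia-inducible factors, measured 22.6, 26.7, 20.3 and 22.3 CPM in control and 40.2, 29.1, 33.1 and 48.8 CPM in siG9a, without overlap. Its limma adjusted p was 0.2996 unblocked, 0.0483 blocked and 0.133 blocked without the replicate 3 pair. PER1 (log2 difference 0.67) and BNIP3 (0.79), a clock repressor and a hypoxia target, were not called. Of 22 further bHLH genes 21 were found and 14 tested, the unblocked fit called 0, and the blocked fit called 1 higher and 0 lower. That gene, MAX, the dimer partner of the MYC family, had a log2 difference of 0.94 at a limma adjusted p of 0.00246 blocked and 0.243 unblocked, and an antisense gene overlaps it. Without both replicate 3 libraries, the unblocked adjusted p of MAX was 0.0164 in limma. In the same list, USF2 (−0.54) and MXD1 (0.63) were not called.

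The genes most like a member were found by the root mean square difference of log2(CPM + 1), each gene centred on its own mean over the 8 libraries, among the 8898 genes that averaged 10 CPM or more. The member of each role with the highest mean was used, and the measure describes these 8 libraries without a test. For ID3 the nearest were PKDCC (0.203), LASP1 (0.244) and GBE1 (0.271), where ID3 itself varied by 0.964 about its mean. LASP1, an actin-binding protein, measured 99.4, 55.3, 39.4 and 63.9 CPM in control and 217.2, 129.5, 46.3 and 156.6 CPM in siG9a, with the highest value in replicate 1 and the lowest in replicate 3 of both groups, as for ID3. ID1 stood at place 59 by this measure. For TCF4 the nearest were CSPG4 (0.157), ADRBK2 (0.161) and FAM172A (0.177), which all had siG9a replicate 4 within or above their control range. For MSC the nearest were NOG (0.159), ETS1 (0.213) and COL3A1 (0.217), which all had their lowest values in replicate 3 of both groups.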

How the data were processed

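RNA of 4 control and 4 siG9a libraries was extracted with TRIzol and made into QuantSeq 3′ single-end libraries, per the labels' protocols. The submitters' processing notes list FastQC 0.11.8, Trim Galore, STAR 2.5.0a, HTSeq 0.8.0 and edgeR 3.28, and the builds GRCh38 and hg19, without their roles. The deposited values are CPM, per the file headers, which the authors scaled to the reads assigned to genes in each library. All non-zero values (100%) were whole multiples of 1 read within 0.006 CPM, so whole reads were recovered. Intervals and floors (3 reads) cover counting error only.

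Values were tested as log2(CPM + 1), which understates changes of low genes, with limma 3.58.1 (R 4.3.3; eBayes with trend, two-sided, Benjamini-Hochberg over the 15092 genes averaging 1 CPM or more). The unblocked model held the group alone, and the blocked model added the replicate number given in the titles. The correlation across genes of deviations from group means was 0.50, 0.104, 0.67 and 0.13 for numbers 1 to 4, above 0.1 for each, so the numbers were read as pairs, although the labels do not explain them. Control replicate 2 correlated best with siG9a replicate 4, and siG9a replicate 4 with control replicate 2, so the pairing rests mainly on numbers 1 and 3. Alternatives were edgeR 4.0.16 and DESeq2 1.42.0 on the recovered reads, other pseudocounts, filters, scaling and weights, and leaving out libraries or pairs. The scripts were tested on simulated data.

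The members and lists were chosen with earlier results of these data known. All members were named, with MYOD1, MYF5, MYF6 and MYOG. In each list the 3 genes with the smallest unadjusted p and up to 4 called in the blocked fit were also named. BMP4, BMP5, HEYL, ACVR2A, SNAI1, SNAI2, CDKN1A, CDKN1C, SMAD5, SMAD6, SMAD7, BAMBI and NOG were added after their values were seen. Some genes that the rule includes are not reported here. Promoters came from RefSeq (GRCh38.p14), with entries for 8 of the 10 members. Exon overlaps came from GENCODE release 29, which holds 86.9% of the table's identifiers.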

Additional observations from a re-analysis of the deposited data

Results flagged for a closer look

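Dixon's ratio was computed in every group of 4 libraries for the 10 genes and for the ratio of E to ID sums. It passed its 95% critical value in 3 of 22 cases (about 1.1 would do so by chance), all of them genes at or near the floor of 3 reads. BHLHE40 stood out in control replicate 3, with 3.69 CPM from 6 reads against 0.61 to 1.04 CPM in the other control libraries. In siG9a replicate 4 BHLHE40 had 0 CPM, against 1.55 to 1.82 CPM from 3 reads in each of the other siG9a libraries. BHLHE41 stood out in control replicate 3, with 1.84 CPM from 3 reads, while the other control libraries had 0.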

How the results depend on the processing

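The replicate block moved the results most. Without it, limma called 0 genes and 0 members, edgeR 0 and 0, and DESeq2 291 and 0; limma without a filter called 18 genes and with array weights 436, and 0 members in both. With the replicate block, limma called 1717 genes, edgeR 1711 and DESeq2 969, and each called 3 members, TCF4, ID1 and ID3. Leaving out 1 library without the block gave 0 to 300 genes (300 without control replicate 3, 2 without siG9a replicate 4) and 0 members. Leaving out both replicate 3 libraries without the block gave 413 genes and 0 members. Leaving out 1 pair with the block gave 668 (without replicate 2) to 1393 genes and 2 or 3 members, TCF4 being lost without replicate 2. EHMT2 was called with the block at log2 changes of −1.10 (limma), −1.09 (edgeR) and −1.12 (DESeq2), in no fit without it, and between −1.35 and −0.84 when libraries or pairs were left out. ID1, ID3 and ID2 kept a positive and TCF4, TCF12 and TCF3 a negative log2 change in every alternative run, but their size moved when 1 library was left out without the block. ID1 (0.86) went to 0.22 without control replicate 3 and 1.51 without siG9a replicate 3, ID3 (0.87) to 0.53 and 1.38, ID2 (0.54) to 0.93 and 0.34, and TCF12 (−0.35) to −0.76 and −0.04. ID3 went to 0.51 without siG9a replicate 1, and ID2 to 0.30 without control replicate 1. With the block, leaving out 1 pair gave 0.81 to 0.89 for ID1, 0.69 to 1.04 for ID3, 0.33 to 0.73 for ID2, −0.48 to −0.17 for TCF12 and −0.97 to −0.63 for TCF4.

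MSC ranged from −0.74 to 0.32 in log2 difference when 1 library was left out, and was above 0 without control replicate 1 (0.03) or siG9a replicate 3 (0.32). BHLHE40 ranged from −0.41 to 0.25 when a library or pair was left out. It was above 0 with array weights (0.0887), without control replicate 3 or siG9a replicate 4 (0.25 each), without the replicate 3 pair in both fits (0.12) and without the replicate 4 pair (0.20). The cause was not tested. Summing identifiers of a symbol was not run, since each member has 1. Depth limits TWIST1, BHLHE40 and BHLHE41, at 8 reads or fewer per library.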
